A study of Homo sapiens with 58 samples.

Results

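Presomitic mesoderm, harvested at Day2, was compared with mesendoderm, harvested at Day1, over all genes of the deposited count table. The comparison used 6 of the 58 libraries in the study, 3 labelled Day1 and 3 labelled Day2, and the groups were taken from the labels alone. Both groups came from wild-type H1, an established line of human embryonic stem cells, and every library was RNA-seq of cultured cells. Day1 cells had spent 24 h in 100 ng/mL activin A and 3 µM CHIR99021, a GSK3 inhibitor that activates Wnt signalling, in E8 medium. Day2 cells had the same first step and then another 24 h with CHIR99021 kept at 3 µM, with 100 ng/mL of the BMP antagonist NOGGIN, with FGF2 at 100 ng/mL and with 2 µM A83-01, an inhibitor of the activin, nodal and TGFβ receptors. The base of this second medium was E6, which is E8 without its own FGF2 and TGFβ1. CHIR99021 was thus shared by both groups, and so was FGF2, which E8 holds itself. The loss of activin, the inhibitors, any change in FGF2 dose, the medium change and the extra day came together and cannot be told apart. The other libraries, undifferentiated cells (Day0), somite cells (Day3) and a presomitic time course of 46 libraries, are used here only to set levels beside those of Day1 and Day2.

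In the embryo, cells that pass through the primitive streak become mesoderm or endoderm, and nodal, Wnt and FGF signals set which. Presomitic mesoderm is the paired strip of posterior mesoderm that is cut into somites by a Notch-based segmentation clock, in step with opposing gradients of Wnt and FGF from the tail and retinoic acid from the formed somites. It is recognised by the transcription factors MSGN1 and TBX6 and by the Wnt agonist RSPO3, and its HOX genes are turned on in order along each cluster.

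Levels are given as CPM, counts scaled to a library total of 1000000 after edgeR's TMM scaling, in the order replicate 1, 2 and 3, or as the mean ± SD over n = 3 libraries. A gene was called if edgeR's quasi-likelihood test, fitted to the 12 daily libraries, gave a Benjamini-Hochberg adjusted p under 0.05 over all 12765 genes tested and a change of at least 2-fold, which is 1 on the log2 scale. All adjusted p-values and all log2 fold changes ± SE are from that fit, and changes are Day2 minus Day1. Nothing in the labels says that replicates were separate cultures, so p-values measure only how these libraries vary, and that variation may be technical. Lower RNA of a gene in bulk samples can come from fewer cells of a type or from less RNA per cell, and these cannot be told apart.

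Of the 12765 genes tested, 1499 were called (11.7%), with 457 higher at Day2 (3.58%) and 1042 lower (8.16%). The median log2 fold change of all genes tested was -0.04. By the fitted change, 154 of the higher and 417 of the lower genes changed at least 4-fold, and 46 and 160 at least 16-fold. Where a day had 0 or few counts the fitted size is uncertain. The Day2 libraries, being shallower, reach 0 sooner, so the sizes of the 2 directions are not strictly comparable. Libraries of the 2 days did not overlap for 436 of the genes called higher and 1032 of those called lower, against 4870 (38.2%) of all genes tested. Genes called higher were 30.5% of the calls. With limma on the authors' TPM values (a unit corrected for gene length) the share was 15.2% and the median of all genes moved to -0.23, with 290 genes called higher and 1615 lower. Leaving out Day1 replicate 2 left 864 calls, 221 higher and 643 lower.

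The Day2 libraries were shallower than those of Day1, with 3.16 to 3.60 M expected counts against 4.36 to 5.95 M. They were also less alike, with a correlation across genes of 0.904 to 0.920 between replicates against 0.957 to 0.965 at Day1. A count of 0 allows up to 0.901 to 1.06 CPM in a Day2 library and 0.503 to 0.699 CPM in a Day1 library, counting error only. Transcripts counted on gene copies that are nearly identical to abundant genes also moved with the day. PPIAL4G, a copy of the cyclophilin gene PPIA, stood at 288, 163 and 272 CPM at Day1 and 865, 789 and 575 at Day2. An index of 7 such copies ran from -0.46 to 0.31 in the Day1 libraries and from 1.01 to 1.62 at Day2, without overlap. A fit with this index as a covariate, called the copy-adjusted fit below, left 531 calls (170 higher and 361 lower), and what the index measures was not tested. Because the index itself separates the 2 days, that fit cannot cleanly divide index from day. A call lost in it therefore need not mean a smaller change. MIXL1 lost its call with log2 fold changes of -4.08 and, in that fit, -4.07, whereas HNRNPAB went from 1.02 to 0.02. Of 163 called genes recomputed under 16 other settings, 111 kept their call without each of the 6 libraries in turn, and 72 lost it in the copy-adjusted fit.

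The Day2 libraries carried all 3 markers of presomitic mesoderm at higher levels than Day1, and the Day1 libraries carried the mesendoderm markers given below. MSGN1, a bHLH factor that drives the release of presomitic cells from the streak, was at 0.233, 0.335 and 0.783 CPM at Day1 and 11.7, 26.8 and 57.4 at Day2 (log2 fold change 6.07 ± 0.91, adjusted p = 0.000383). RSPO3, a secreted amplifier of Wnt signalling, went from 27.7, 22.9 and 36.8 to 142, 235 and 351 CPM (log2 fold change 3.06 ± 0.33, adjusted p = 1.92e-05). TBX6, the T-box factor that directs streak cells to paraxial mesoderm, went from 1.4, 1.84 and 2.15 to 13, 10.9 and 20.1 CPM (log2 fold change 3.01 ± 0.84, adjusted p = 0.0217). The Day1 and Day2 libraries did not overlap for any of these 3 genes, and for all 3 the highest level was in Day2 replicate 3. The TBX6 call rested on few counts, 28 over Day1 and 139 over Day2, and was lost without Day1 replicate 1, Day1 replicate 2, Day1 replicate 3 and Day2 replicate 3 (adjusted p 0.0581 to 0.0814) and in the copy-adjusted fit (adjusted p = 0.223). By length-corrected TPM, mean MSGN1 at Day2 was 115, RSPO3 228 and TBX6 16.4, and in the 46 time course libraries TPM ran from 0.74 to 191 (median 21.3), 65.8 to 730.2 (median 149) and 0.84 to 90.2 (median 37.1) in the same order. The Day2 mean lay within the span of the course for each marker.

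The promoters of the markers are shown to place these genes beside the Wnt activator present on both days. MSGN1 is a known target of TBX6 and of Wnt signalling. The sequences are the 250 bases before each RefSeq start site on GRCh38.p14, written 5′ to 3′ along the gene. They were searched on both strands for CTTTGA, the core of sites bound by the Wnt effectors TCF and LEF, and for AGGTGTG, a T-box site, and matches are in capitals. Of 27305 RefSeq promoters cut to the same 250 bases, 11.4% hold the first and 3.88% the second. MSGN1 lies at chr2:17816210-17816459 on the plus strand, TBX6 at chr16:30091925-30092174 on the minus strand and RSPO3 at chr6:127118421-127118670 on the plus strand.
MSGN1: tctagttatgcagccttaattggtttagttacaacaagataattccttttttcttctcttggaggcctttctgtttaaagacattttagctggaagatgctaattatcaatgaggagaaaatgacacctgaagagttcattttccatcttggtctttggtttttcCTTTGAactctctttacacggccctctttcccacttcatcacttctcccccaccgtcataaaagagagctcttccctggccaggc
TBX6: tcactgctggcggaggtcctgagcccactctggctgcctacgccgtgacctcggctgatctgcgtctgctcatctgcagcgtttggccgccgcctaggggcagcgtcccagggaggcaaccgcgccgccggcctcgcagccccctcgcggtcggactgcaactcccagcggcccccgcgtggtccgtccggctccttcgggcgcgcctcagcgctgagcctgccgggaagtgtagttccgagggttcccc
RSPO3: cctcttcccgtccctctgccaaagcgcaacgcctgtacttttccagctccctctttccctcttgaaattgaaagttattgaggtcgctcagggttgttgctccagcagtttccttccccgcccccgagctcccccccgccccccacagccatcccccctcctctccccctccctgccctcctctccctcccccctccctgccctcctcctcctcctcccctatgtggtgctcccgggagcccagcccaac
MSGN1 had the TCF/LEF letters once, 85 bases before its start, while the TBX6 and RSPO3 windows had neither set of letters. A match is a description of the sequence, and the absence of these letters in the window says nothing about either factor.

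Of 16 listed genes of presomitic mesoderm, 12 passed the filter on low counts and 8 were called higher and none lower, with a median log2 fold change of 2.95. Since that filter can keep a gene through the day on which it is high, the count describes the genes that passed. The Notch ligands that the clock uses were among them. DLL1, a ligand that activates Notch on the neighbouring cell, stood at 6.52, 1.51 and 4.11 CPM at Day1 and 37.8, 59.7 and 81.4 at Day2 (log2 fold change 3.93 ± 0.72, adjusted p = 0.0015). DLL3, a ligand that restrains Notch within the same cell, stood at 8.38, 8.04 and 3.13 CPM at Day1 and 47, 70.3 and 61 at Day2 (log2 fold change 3.18 ± 0.59, adjusted p = 0.00159). LFNG, the glycosyltransferase that modifies Notch and is one of the cycling genes of the clock, stood at 10.5, 8.38 and 10.4 CPM at Day1 and 85.4, 55.4 and 74.8 at Day2 (log2 fold change 2.88 ± 0.31, adjusted p = 1.76e-05). Each of these 3 was higher in every Day2 library than in any Day1 library, with fitted changes of 7.39-fold for LFNG, 9.09-fold for DLL3 and 15.2-fold for DLL1. The protocadherin PCDH8, which acts in somite boundary formation, rose as well (2.16, adjusted p = 0.00432), although not in the copy-adjusted fit (adjusted p = 0.0527). CITED1, a transcriptional co-activator, had no count in the Day1 libraries and 6.98, 13.4 and 2.4 CPM at Day2, at least 37.4-fold higher with 3 counts over the group as the floor.

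Of 22 tested members of the Notch pathway (median 0.13), 3 were called higher, the 3 just described (13.6%, against 3.58% of all genes). Another 2 were called lower (9.09%, near the 8.16% of all genes). None was lower in the fits without Day1 replicate 2, Day1 replicate 3 or Day2 replicate 1. The receptor NOTCH1 was at 37.9 ± 6.1 CPM at Day1 and 40.2 ± 7.54 CPM at Day2 (adjusted p = 0.84). RBPJ, the DNA-binding partner of activated Notch, was at 111 ± 13.5 CPM and 124 ± 9.04 CPM (adjusted p = 0.558). HES1, a general Notch target, was at 16.3 ± 3.73 CPM and 18 ± 5.52 CPM (adjusted p = 0.871). HES7, the repressor at the heart of the clock, had no count at Day1 and 0.317, 0.706 and 2.1 CPM at Day2, too few counts for the test. The clock's own repressor was therefore barely measured in the Day1 and Day2 libraries, unlike LFNG and DLL1. RIPPLY2, which acts where somites form, had no count in any of the 6 libraries, and MESP2, another factor of the forming boundary, had none at Day2. The receptor NOTCH3 was called lower (-1.07, adjusted p = 0.0189), a call lost without Day1 replicate 2, Day1 replicate 3, Day2 replicate 1 and Day2 replicate 2 (adjusted p 0.0508 to 0.0715) and in the copy-adjusted fit (adjusted p = 0.141).

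**Figure D1:**
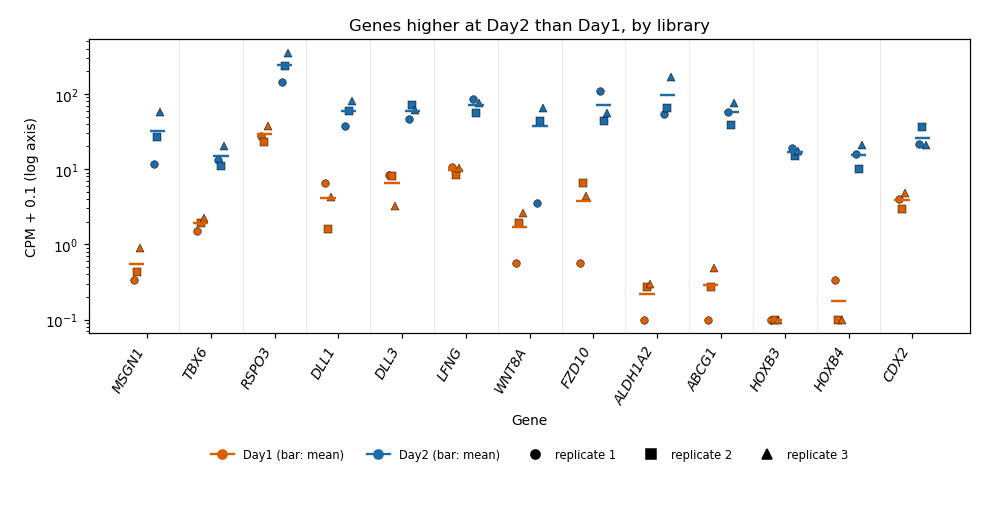
CPM + 0.1 on a log axis for 13 genes (presomitic, Wnt, retinoic acid, HOX and CDX genes and the cholesterol exporter ABCG1) in the 3 Day1 (orange) and 3 Day2 (blue) libraries; symbols give the replicate and bars the mean. Every Day2 point lies above every Day1 point of its gene, and for MSGN1, TBX6, RSPO3, DLL1, WNT8A, ALDH1A2, ABCG1 and HOXB4 the highest Day2 value is that of replicate 3.

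The HOX genes that were called were at or near 0 at Day1 and rose at Day2. Of 39 listed, 12 passed the filter on low counts, and 8 of these were called higher and none lower, a description for the reason given above. The fit on the 6 libraries alone called 5 higher and DESeq2 called 13. All 8 are in the A and B clusters, and none lies at the posterior ends of these clusters. HOXB3 had no count at Day1 and 18.7, 14.8 and 17.1 CPM at Day2, at least 86.9-fold higher. HOXB4 had 1 count at Day1, a ratio of 243 (95% interval 42.9 to 9649), and stood at 15.6, 9.89 and 21 CPM at Day2. HOXB5 and HOXB7 had no count at Day1 and were at least 27.5-fold and 47.9-fold higher. HOXA3, HOXA5 and HOXB2 were also called and lost their calls in the copy-adjusted fit (adjusted p = 0.0885, 0.0636 and 0.0603), HOXA3 also without Day1 replicate 2 and Day1 replicate 3 (adjusted p 0.0608 to 0.0672) and HOXA5 also without Day1 replicate 2 and Day1 replicate 3 (adjusted p 0.0822 to 0.0985).

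Some HOX genes differed strongly among the Day2 libraries. HOXB9, a posterior gene of the cluster, had 0, 1.01 and 0.783 CPM at Day1 and 15.6, 1.77 and 7.21 at Day2. HOXB8 had no count at Day1 and 0.635, 6.71 and 1.8 CPM at Day2. HOXB1, an early anterior gene, had 0, 0.168 and 0.196 and 1.27, 6.71 and 15.9 CPM. None of these 3 passed the filter on low counts. No order of the libraries was shared, since replicate 1 was the highest for HOXB9, replicate 2 for HOXB8 and replicate 3 for HOXB1. By Day3 HOXB3 and HOXB4 were at 8.54 ± 6.47 CPM and 9.24 ± 6.44 CPM and HOXB9 at 0.348 ± 0.604 CPM.

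The CDX factors, which turn on HOX genes in the tail bud, differed from each other. CDX2 rose from 3.96, 2.85 and 4.7 to 21.6, 35.7 and 21 CPM (log2 fold change 2.76 ± 0.71, adjusted p = 0.0125), a call lost without Day1 replicate 2 and Day2 replicate 2 (adjusted p 0.0591 to 0.0655) and in the copy-adjusted fit (adjusted p = 0.0536). CDX1 was already at 36.6, 35.5 and 26.2 CPM at Day1 and stood at 22.2, 41.7 and 38.1 at Day2 (log2 fold change 0.05, adjusted p = 0.961). Of 12 tested genes of the posterior growth zone, 2 were called higher (16.7%, against 3.58% of all genes) and none lower. These were CDX2 and the growth factor gene GDF11 (1.25, adjusted p = 0.0318). The GDF11 call was lost without Day1 replicate 1, Day1 replicate 2, Day1 replicate 3, Day2 replicate 1 and Day2 replicate 3 (adjusted p 0.0518 to 0.113), in the copy-adjusted fit (adjusted p = 0.107), in the fit on the 6 libraries alone (0.0527) and with limma on TPM (0.0878). Without Day1 replicate 2 neither gene was called. WNT3A, a Wnt ligand of the tail bud, had 1.63, 0.838 and 4.5 CPM at Day1 and 0.317, 10.9 and 9.31 at Day2, with replicate 1 of Day2 below every Day1 library (adjusted p = 0.42).

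Among listed genes for retinoic acid synthesis ALDH1A2 was called higher, and among those for its breakdown CYP26A1 was called lower. ALDH1A1, ALDH1A3, RDH10, CYP26B1 and CYP26C1 had no call. ALDH1A2, the enzyme that makes retinoic acid in paraxial mesoderm, had 2 counts over the Day1 libraries and 54.3, 64.6 and 170.0 CPM at Day2, a ratio of 759 (95% interval 209.6 to 6279.5) with an adjusted p of 9.45e-07. CYP26A1, an enzyme that degrades retinoic acid, went from 159.7, 147 and 96.3 to 6.67, 8.12 and 6.01 CPM (log2 fold change -4.28 ± 0.40, adjusted p = 4.93e-06). Of 19 tested genes of the pathway (median 0.83), 7 were called higher (36.8%, against 3.58% of all genes) and 1, CYP26A1, lower (5.26%, against 8.16%). Several carry retinoids to or within the cell. CRABP2, which brings retinoic acid to its receptors, rose from 113 ± 2.14 CPM to 252 ± 44.7 CPM (1.16, adjusted p = 0.000802). STRA6, which takes retinol into cells, rose from 2.54 ± 1.16 CPM to 19.3 ± 8.77 CPM (2.90, adjusted p = 0.00213). The receptors RARA, RARB and RARG were not called (adjusted p = 0.53, 0.0833 and 0.209), though DESeq2 called RARB higher (adjusted p = 0.0134). In the copy-adjusted fit the pathway had 3 calls higher and the same 1 lower. CRABP2 fell short of 2-fold with limma on TPM (log2 change 0.96). ALDH1A2 was at 151 ± 57.4 CPM at Day3.

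Genes of formed somites were low at Day2, while some somite genes had risen. MEOX1, a homeobox gene of formed somites, was at 0.233, 0.503 and 0.196 CPM at Day1, 0, 0.353 and 0 at Day2 and 169.7 ± 43 CPM at Day3. TCF15, which keeps somites epithelial, was at 3.26, 3.35 and 6.85 CPM at Day1, 1.27, 6.00 and 0 at Day2 and 308 ± 57.5 CPM at Day3. Of 15 tested somite genes 4 were called higher at Day2 (26.7%, against 3.58% of all genes; median 1.04), among them ALDH1A2, the cadherin CDH11 and PAX3. PAX3, a factor of presomitic mesoderm and of muscle precursors, rose from 9.31 ± 2.34 CPM to 21 ± 3.96 CPM (1.17, adjusted p = 0.0247), a call lost without Day1 replicate 1, Day1 replicate 2 and Day2 replicate 3 (adjusted p 0.0594 to 0.0955). FOXC1, which acts in somite formation, stood at 20.3, 19.1 and 16.1 CPM at Day1 and 66, 55.4 and 70.6 at Day2 without overlap (1.79, adjusted p = 0.132). It was not called in the reported fit and was called in the fit on the 6 libraries alone (adjusted p = 0.00043) and without the filter on low counts (0.0466).

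Of 14 tested genes of the primitive streak and mesendoderm, 8 were called lower (57.1%, against 8.16% of all genes) and none higher. The median was -2.74. EOMES, the T-box factor of the anterior streak, fell from 403, 356 and 308 to 18.1, 10.6 and 1.2 CPM (log2 fold change -5.17 ± 0.58, adjusted p = 2.77e-05). MIXL1, a homeobox gene of the streak, fell from 80.1, 109 and 85 to 7.94, 4.94 and 3.3 CPM (log2 fold change -4.08 ± 0.52, adjusted p = 0.000168). GATA6, a zinc-finger factor of endoderm and heart, fell from 149, 124 and 132 to 8.25, 2.12 and 7.21 CPM (log2 fold change -4.50 ± 0.47, adjusted p = 1.37e-05). The size of the fall differed between members. Brachyury, listed as T, the factor shared by the streak and the tail bud, was at 153, 193 and 233 CPM at Day1 and still at 40.6, 61.1 and 82.3 at Day2 (log2 fold change -1.65 ± 0.29, adjusted p = 0.00115). EOMES and MIXL1 were lowest in Day2 replicate 3, while T was highest there and lowest in replicate 1. The libraries of the 2 days did not overlap for any of these 4 genes. In the copy-adjusted fit T and MIXL1 kept their direction and lost their call (adjusted p = 0.0633 and 0.0751).

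The other 6 streak genes tested were not called. APLNR, the apelin receptor of early mesoderm, had 75.7, 105 and 95.2 CPM at Day1 and 137, 192 and 185 at Day2, without overlap, a change short of 2-fold (0.90, adjusted p = 0.0152) that passed it without Day1 replicate 2 (1.01), without Day2 replicate 1 (1.06) and in the copy-adjusted fit (1.40). OTX2, a factor of the anterior streak and forebrain, was at 75.4, 57.8 and 81.3 CPM at Day1 and 103, 133 and 86.2 at Day2 (0.59, adjusted p = 0.207). The signalling genes WNT3, FGF17 and FGF8 had lower means at Day2 and were not called (adjusted p = 0.0645, 0.0591 and 0.175). WNT3 and FGF17 were called lower with the replicate block (adjusted p = 0.0214 and 0.0317) and in the fit on the 6 libraries alone (0.0334 and 0.0212), where 10 genes of the list were lower. Single libraries also decided these genes, since WNT3 and FGF8 were called without Day2 replicate 1 (adjusted p = 0.0206 and 0.0306) and FGF17 without Day2 replicate 2 (0.00995).

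Genes of nodal signalling included several of the deepest falls, in the step in which activin was withdrawn and its receptors were inhibited. Nodal and activin bind shared receptors, and their targets include their own feedback inhibitors. The ligand gene NODAL went from 357, 402 and 349 to 1.9, 3.53 and 0.901 CPM (log2 fold change -7.47 ± 0.86, adjusted p = 3.73e-05). Its co-receptor TDGF1 went from 509, 616 and 489 to 24.4, 4.94 and 6.61 CPM (log2 fold change -5.48 ± 0.43, adjusted p = 1.08e-06). Every Day2 library was far below every Day1 library for both. The feedback inhibitors that nodal is known to induce also fell. CER1, a secreted antagonist, went from 454, 533 and 337 to 0.317, 0.353 and 1.2 CPM (log2 fold change -9.37 ± 0.47, adjusted p = 6.08e-09). LEFTY1, another antagonist, went from 18.9, 20.1 and 9.99 to 0, 1.77 and 0 CPM (log2 fold change -4.83 ± 1.28, adjusted p = 0.0149). Its neighbour and paralog LEFTY2 had 0 counts at Day2, at least 26.5-fold lower, and the 2 genes are similar enough that reads may be shared. Inside the cell, SMAD7, which blocks the receptors, went from 37.3, 36.5 and 32.9 to 0.317, 0 and 3.00 CPM (log2 fold change -4.91 ± 0.74, adjusted p = 0.000398). SKIL and PMEPA1, also negative regulators, fell by 2.39 and 4.51 on the log2 scale (adjusted p = 2.38e-05 and 0.000938).

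Genes for the receptors and effectors of the pathway were not called. The receptor genes ACVR1B, ACVR2A and ACVR2B and the effectors SMAD2, SMAD3 and SMAD4 had log2 fold changes from -0.65 to 0.62 and adjusted p from 0.0800 to 0.954. FST, an activin-binding protein, was at 268, 212 and 211 CPM at Day1 and 156, 241 and 238 at Day2 (-0.13, adjusted p = 0.783). Over the 20 tested members of the list 11 were lower (55%, against 8.16% of all genes) and none higher (median -2.27). Among those lower was FOXH1, the DNA-binding partner of the nodal effectors (-2.14, adjusted p = 0.00352). In the copy-adjusted fit 7 of the 20 were lower, and LEFTY1 and LEFTY2 were among those not called (adjusted p = 0.251 and 0.152).

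The step added NOGGIN, and of 21 BMP genes tested 2 were called lower (9.52%, near the 8.16% of all genes) and none higher (median -0.10). BMP2, a ligand, went from 114, 138 and 148 to 5.4, 2.83 and 9.31 CPM (log2 fold change -4.49 ± 0.50, adjusted p = 2.48e-05). ID1, an immediate target of BMP signalling, went from 13.7, 19.6 and 15.7 to 1.59, 0.353 and 0 CPM (log2 fold change -4.61 ± 0.78, adjusted p = 0.000861). The other ID genes, also BMP targets, were not called. ID2 was at 77.8 ± 3.89 CPM at Day1 and 71 ± 16.1 CPM at Day2 (adjusted p = 0.836), and ID3 at 46.1 ± 13 CPM and 33.1 ± 7.35 CPM (adjusted p = 0.356). BAMBI, a decoy receptor for BMP and TGFβ, had 45.4, 58.3 and 47.6 CPM at Day1 and 27.9, 6.00 and 1.8 at Day2 (adjusted p = 0.0554). BAMBI was called lower with the replicate block (adjusted p = 0.02), in the fit on the 6 libraries alone (0.0331) and without Day2 replicate 1 (0.00429). Its Day2 libraries spread more widely than its Day1 libraries, with replicate 1 the highest.

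**Figure D2:**
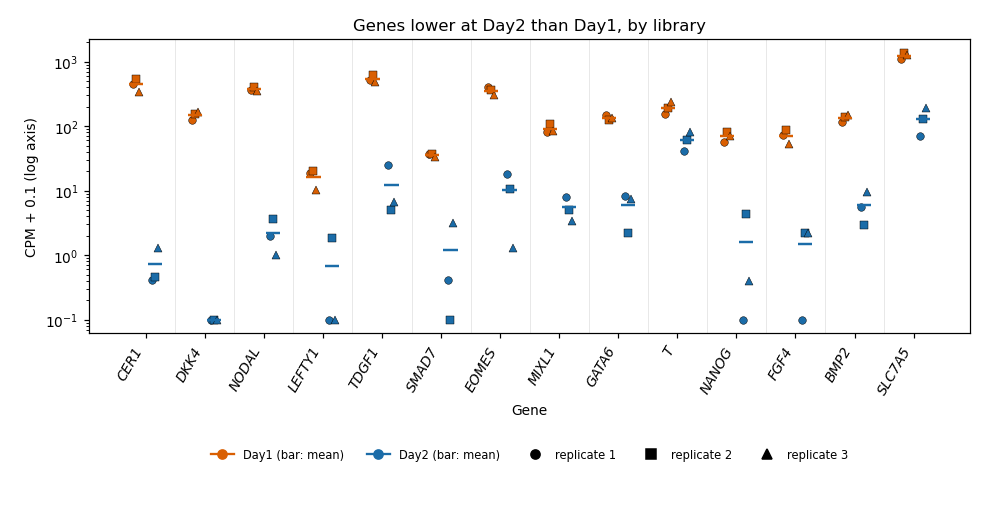
CPM + 0.1 on a log axis for 14 genes of the nodal, mesendoderm, pluripotency, growth factor and amino acid transport groups in the 3 Day1 (orange) and 3 Day2 (blue) libraries; symbols give the replicate and bars the mean. Every Day2 point lies below every Day1 point of its gene, DKK4 reaches 0 in all 3 Day2 libraries, and T falls the least in proportion among the mesendoderm genes shown.

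Wnt pathway genes, whose activator was in the medium on both days, were called in both directions. Of 22 feedback genes and targets, 4 were higher (18.2%) and 5 lower (22.7%), with a median of -0.21. Of 25 ligands and receptors, 4 were higher (16%) and 2 lower (8%), with a median of 0.31. The shares over all genes were 3.58% higher and 8.16% lower. In each list 2 genes were higher without Day1 replicate 1 and without Day1 replicate 2, and in the second list also without Day1 replicate 3. Direct targets that are common readouts had fitted changes under 2-fold. AXIN2, a scaffold of the complex that degrades β-catenin, was at 172, 153 and 135 CPM at Day1 and 123, 53.3 and 100.3 at Day2 (-0.73, adjusted p = 0.0404). SP5, a transcription factor, was at 85.7, 86.1 and 94.2 and 54.3, 44.9 and 80.8 CPM (-0.56, adjusted p = 0.377). By contrast, LEF1, a DNA-binding effector that is also a target, rose from 25.6, 36.2 and 39.7 to 103, 73.5 and 117 CPM (log2 fold change 1.53 ± 0.32, adjusted p = 0.0036). TNFRSF19, another target, rose as well (2.13, adjusted p = 0.00428).

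The secreted Wnt antagonists DKK4 and DKK1, of the Dickkopf family, fell. DKK4 went from 125, 151 and 167 CPM to 0 counts in all Day2 libraries, at least 463-fold lower. DKK1 fell from 416, 469.5 and 438 to 176, 51.6 and 36.3 CPM (log2 fold change -2.33 ± 0.45, adjusted p = 0.00217), and the Day2 libraries differed, replicate 1 being the highest. NOTUM, an enzyme that inactivates Wnt ligands, had 0 counts at Day2 and was at least 19.2-fold lower, a call lost without Day1 replicate 2 and Day1 replicate 3 (adjusted p 0.0544 to 0.0634) and in the copy-adjusted fit (adjusted p = 0.315). MYC, a target of Wnt and of growth factors, fell from 69.4, 53.8 and 49.5 to 4.44, 7.06 and 1.2 CPM (log2 fold change -3.79 ± 0.41, adjusted p = 1.92e-05). SFRP2 fell (-1.36, adjusted p = 0.00115), whereas the related antagonist FRZB rose (2.09, adjusted p = 0.017), a call lost without Day1 replicate 1, Day1 replicate 2 and Day2 replicate 2 (adjusted p 0.0505 to 0.0657) and in the copy-adjusted fit (adjusted p = 0.0955).

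Among ligands and receptors, WNT8A and FZD10 rose most. The other receptor genes called higher were less stable: FZD2 (1.09, adjusted p = 0.0469) was lost without Day1 replicate 1, Day1 replicate 2, Day1 replicate 3 and Day2 replicate 2 (adjusted p 0.0881 to 0.206). ROR1 (1.35, adjusted p = 0.0471) was lost without Day1 replicate 1, Day1 replicate 2, Day1 replicate 3, Day2 replicate 1 and Day2 replicate 2 (adjusted p 0.0829 to 0.168) and in the copy-adjusted fit (adjusted p = 0.692). WNT8A, a ligand of the posterior embryo, had 0.466, 1.84 and 2.55 CPM at Day1 and 3.49, 43.1 and 64.6 at Day2 (log2 fold change 4.46 ± 0.89, adjusted p = 0.00281); Day2 replicate 1 was far below the others, though above the Day1 libraries. The receptor FZD10 had 0.466, 6.37 and 4.31 CPM at Day1 and 111, 43.8 and 55.6 at Day2 (log2 fold change 4.19 ± 0.62, adjusted p = 0.000329), here with replicate 1 the highest. FZD7, the frizzled gene with the highest mean TPM at Day2 (55.4, against 42.1 for FZD10), was not called (-0.07, adjusted p = 0.935). VANGL1, a planar polarity gene, fell from 67.1 ± 12.1 CPM to 12.2 ± 4.33 CPM (-2.45, adjusted p = 0.000152), while its paralog VANGL2 was not called (adjusted p = 0.534). WNT5A and WNT5B, ligands that act in cell movement, were at 156 ± 41.6 CPM and 139 ± 53.7 CPM on Day2 and were not called (adjusted p = 0.705 and 0.104), though the fit on the 6 libraries alone called WNT5B higher (0.00875).

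Among the cells' own FGF genes 3 fell between the days, on both of which the medium held FGF2 protein. FGF4, an FGF of pluripotent cells and the streak, went from 72.2, 88.3 and 52.7 to 0, 2.12 and 2.1 CPM (log2 fold change -5.64 ± 0.70, adjusted p = 6.69e-05). FGF19 went from 16.3, 19.4 and 13.3 to 0.635, 0.353 and 0.901 CPM (log2 fold change -4.63 ± 0.85, adjusted p = 0.00215). FGF2 went from 68.5, 86.1 and 78.1 to 8.25, 24.4 and 31.5 CPM (log2 fold change -1.86 ± 0.48, adjusted p = 0.0134). FGFR1, the main receptor of paraxial mesoderm, rose from 123, 109 and 147 to 264, 268 and 262 CPM (log2 fold change 1.07 ± 0.16, adjusted p = 0.000359), just past the 2-fold limit. It fell short of that limit without Day1 replicate 2 (log2 change 0.97) and with limma on TPM (log2 change 0.88). These 4 were the calls among 16 FGF ligands and receptors (median -0.68). The shares were 18.75% lower (against 8.16% of all genes) and 6.25% higher (against 3.58%). Without Day2 replicate 1 there were 5 lower, and FGF19 and FGF2 lost theirs in the copy-adjusted fit (adjusted p = 0.301 and 0.173).

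Of 21 genes that report ERK activity, which FGF raises, 2 were higher (9.52%, against 3.58% of all genes) and 4 lower (19.05%, against 8.16%), with a median of -0.18. None was higher without Day1 replicate 1, without Day1 replicate 2 or in the copy-adjusted fit. SPRY4, a feedback inhibitor, was at 81.2 ± 21.6 CPM at Day1 and 75.5 ± 22.1 CPM at Day2 (adjusted p = 0.825), and ETV5, a transcription factor, at 27.5 ± 2.24 CPM and 40.2 ± 8.63 CPM (adjusted p = 0.317). At Day3, when the medium held the MEK inhibitor PD0325901 and no FGF2, SPRY4 was at 0.226 ± 0.234 CPM. DUSP6, the ERK phosphatase, was called higher (1.34, adjusted p = 0.0199), a call lost without Day1 replicate 1 and Day1 replicate 2 (adjusted p 0.0534 to 0.0996) and in the copy-adjusted fit (adjusted p = 0.679). IER3, an immediate early gene, went from 137, 216 and 172 to 17.5, 2.83 and 3.00 CPM (log2 fold change -4.49 ± 0.70, adjusted p = 0.000499), and FOSL1, a partner in the AP-1 complex, had 0 counts at Day2, at least 18.6-fold lower. FOSL1 was not called in the copy-adjusted fit (adjusted p = 0.0775).

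Of 20 pluripotency genes tested (median -1.28), 10 were lower (50%, against 8.16% of all genes) and 9 were not called. The other 1, SOX2, was higher (5%, against 3.58%). NANOG went from 57.3, 80.4 and 69.1 to 0, 4.24 and 0.300 CPM (log2 fold change -5.58 ± 0.67, adjusted p = 5.64e-05), after 96.3 ± 49.3 CPM at Day0. POU5F1, which encodes OCT4, went from 653, 735 and 607 to 178, 178 and 206 CPM (log2 fold change -1.83 ± 0.23, adjusted p = 6.77e-05), and stood at 51 ± 18.8 CPM at Day3. The level of OCT4 transcripts thus remained well above the floor at Day2, which NANOG transcripts reached in replicate 1. DPPA4 and L1TD1 fell by 2.10 and 2.13 on the log2 scale (adjusted p = 3.26e-06 and 0.000224). LIN28A, an RNA-binding protein of early embryos, was at 1175, 1224 and 1183 CPM at Day1 and 690.1, 952 and 1161 at Day2 (-0.35, adjusted p = 0.12), and SALL4 at 52.3 ± 4.29 CPM and 51.5 ± 21.1 CPM (adjusted p = 0.971). SOX2, which pluripotent cells share with neural progenitors, was at 46.8, 26.3 and 52.1 CPM at Day1 and 101, 112 and 65.5 at Day2 (1.15, adjusted p = 0.0247). That call was lost without Day1 replicate 2, Day2 replicate 1 and Day2 replicate 2 (adjusted p 0.0533 to 0.122), in the copy-adjusted fit (adjusted p = 0.395) and with limma on TPM (log2 change 0.97). The copy-adjusted fit left 6 pluripotency genes lower and none higher.

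Of 27 cadherins and genes of epithelial-mesenchymal transition, 8 were lower (29.6%, against 8.16% of all genes), all of them epithelial. Another 5 were higher (18.5%, against 3.58%), all of them mesenchymal. In the copy-adjusted fit 4 were lower and 4 higher. CDH1, the epithelial cadherin, went from 313, 329.5 and 294 to 12.4, 66.8 and 69.4 CPM (log2 fold change -2.66 ± 0.38, adjusted p = 0.000262). The adhesion molecule EPCAM went from 422, 419.6 and 303 to 37.1, 112 and 131 CPM (log2 fold change -2.03 ± 0.39, adjusted p = 0.00208). CLDN7, a tight junction protein, had 39.1, 46.2 and 38.2 CPM at Day1 and 0 counts in every Day2 library, at least 129-fold lower, whereas its relative CLDN6 kept 31.7, 86.5 and 94 CPM (-2.29, adjusted p = 0.00117). The splicing regulators that hold the epithelial forms of many transcripts also fell. ESRP1 went from 83.1, 101 and 85.8 to 2.54, 7.42 and 4.5 CPM (log2 fold change -4.23 ± 0.43, adjusted p = 9.97e-06), and ESRP2 from 15.8, 23.5 and 13.5 to 0.317, 0.353 and 0 CPM (log2 fold change -6.20 ± 0.95, adjusted p = 0.000436). CDH1, EPCAM, CLDN6 and OCLN were all lowest in Day2 replicate 1, the library in which MSGN1 and RSPO3 were also lowest.

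On the mesenchymal side, the cadherin CDH11 rose from 99.7, 84.1 and 106 to 394, 223 and 356 CPM (log2 fold change 1.75 ± 0.24, adjusted p = 0.000218). ZEB1 and ZEB2, repressors of CDH1, rose by 1.86 and 1.63 on the log2 scale (adjusted p = 0.00162 and 0.000272). The intermediate filament gene VIM rose from 588, 428 and 634 to 1474, 1438 and 1319.8 CPM (log2 fold change 1.36 ± 0.17, adjusted p = 7.62e-05). The neural cadherin CDH2 was high on both days, with 668, 666 and 689 CPM at Day1 and 549.8, 417 and 451 at Day2 (-0.51, adjusted p = 0.0344). SNAI1, the repressor active in the streak, was at 16.6 ± 0.73 CPM and 12 ± 3.37 CPM (adjusted p = 0.647). SNAI2 was called higher (1.65, adjusted p = 0.0291), a call lost without Day1 replicate 2, Day1 replicate 3, Day2 replicate 2 and Day2 replicate 3 (adjusted p 0.0556 to 0.119) and in the copy-adjusted fit (adjusted p = 0.153). EPCAM, ESRP2 and OCLN kept their direction and lost their call in that fit (adjusted p = 0.0525, 0.0519 and 0.104).

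**Figure D3:**
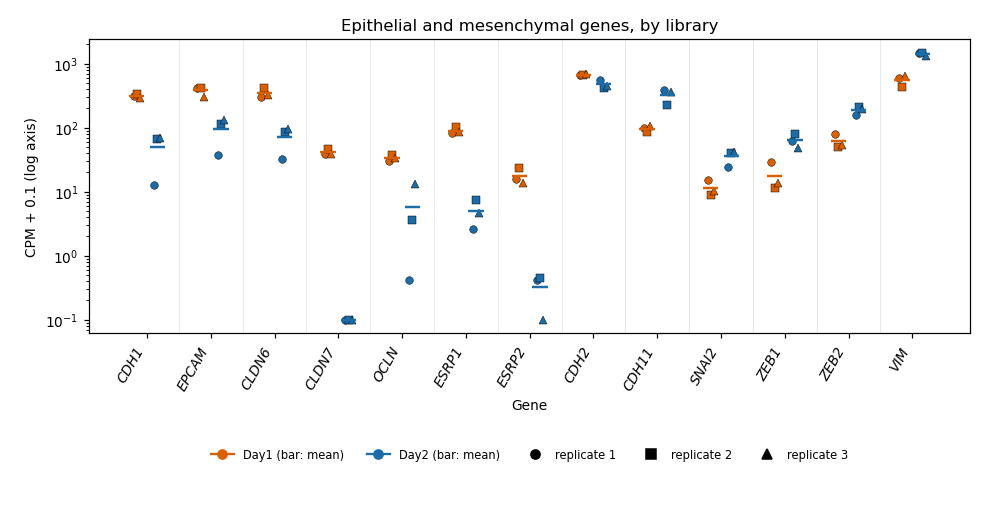
CPM + 0.1 on a log axis for 13 epithelial and mesenchymal genes in the 3 Day1 (orange) and 3 Day2 (blue) libraries; symbols give the replicate and bars the mean. The epithelial genes from CDH1 to ESRP2 are lower at Day2 without overlap, CDH2 is high on both days, and CDH11 to VIM are higher at Day2, with replicate 1 (circles) the lowest Day2 value of CDH1, EPCAM, CLDN6 and OCLN.

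Of 33 extracellular matrix genes 4 were higher (12.1%, against 3.58% of all genes) and 1, COL6A2, lower (3.03%, against 8.16%). COL6A2 was not called when any 1 of the 6 libraries was left out (adjusted p 0.0524 to 0.0931). The fibrillar collagen COL3A1 rose from 9.89 ± 2.47 CPM to 48.6 ± 16.5 CPM (2.30, adjusted p = 0.00128). FBN1, a protein of microfibrils, rose from 23.1 ± 8.05 CPM to 71.5 ± 16.2 CPM (1.64, adjusted p = 0.00143). NID2, of the basement membrane, rose from 14.5 ± 4.83 CPM to 62.5 ± 7.38 CPM (2.12, adjusted p = 8.98e-05). COL5A2, another fibrillar collagen, was the last of the 4 (1.11, adjusted p = 0.00272), a call lost without Day2 replicate 3 (log2 change 0.85). COL1A2 and SPARC, which were at 5121 ± 1302 CPM and 1200.4 ± 334 CPM at Day3, were not called at Day2 (adjusted p = 0.200 and 0.779). The Eph receptors EPHA1 and EPHA2 fell (-2.95, adjusted p = 0.000603 and -1.87, adjusted p = 0.000773), while EPHA4, a receptor of somite boundaries, had 98.3, 84.4 and 96.9 CPM at Day1 and 156, 148 and 166 at Day2 without overlap, short of 2-fold (0.75, adjusted p = 0.0143).

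Of 11 hedgehog genes 3 were higher (27.3%, against 3.58% of all genes) and 1 lower (9.09%, near the 8.16% of all genes). Without Day1 replicate 3 or Day2 replicate 2 and in the copy-adjusted fit 1 was higher. PTCH1, the receptor and a target of the pathway, rose from 27.9, 24.8 and 33.5 to 77.8, 80.2 and 74.2 CPM (log2 fold change 1.43 ± 0.20, adjusted p = 0.000272). GLI2, an activating effector, fell (-1.79, adjusted p = 0.00642) and GLI3, mainly a repressor, rose (1.33, adjusted p = 0.0143), but both calls were lost in the copy-adjusted fit (adjusted p = 0.0932 and 0.255) and that of GLI3 also without Day1 replicate 3 and Day2 replicate 2 (adjusted p 0.0504 to 0.0575). The co-receptor gene BOC (1.82, adjusted p = 0.0385) was lost without Day1 replicate 2, Day1 replicate 3, Day2 replicate 2 and Day2 replicate 3 (adjusted p 0.0524 to 0.159) and in the copy-adjusted fit (adjusted p = 0.0865).

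**Figure D4:**
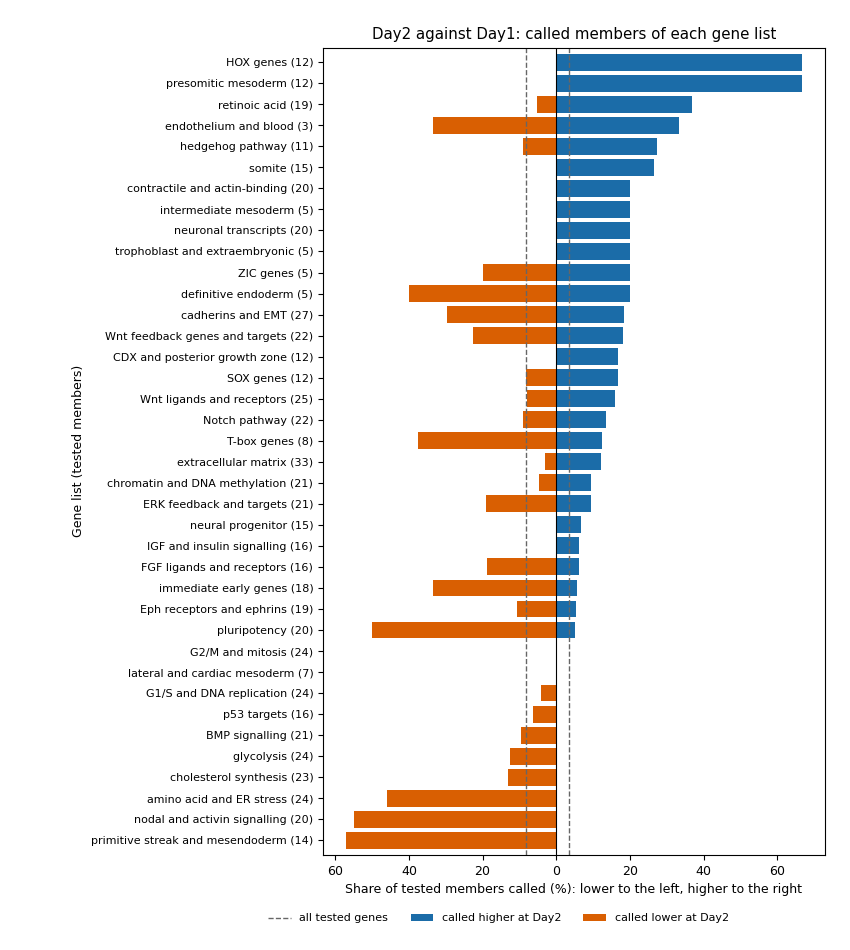
Share of the tested members of 38 gene lists called higher (blue, right) or lower (orange, left) at Day2, with the number tested in brackets and dashed lines at the shares over all genes tested, 3.58% and 8.16%. The presomitic and HOX lists have the largest shares higher, 8 of 12 each. The streak and nodal lists have the largest shares lower, 8 of 14 and 11 of 20. Some lists hold few genes and lists share genes. The filter on low counts can keep a gene through the day on which it is high. The shares therefore describe only the genes that passed, 12 of 39 listed HOX genes and 12 of 16 presomitic genes.

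Of 24 genes of amino acid and endoplasmic reticulum stress, 11 were lower (45.8%, against 8.16% of all genes) and none higher (median -1.02). Those lower included both chains of a transporter of large neutral amino acids. SLC7A5 went from 1097, 1367 and 1254 to 69.8, 129 and 193 CPM (log2 fold change -3.24 ± 0.45, adjusted p = 0.000182), and SLC3A2 from 562, 676 and 572 to 64.1, 149 and 143 CPM (log2 fold change -2.35 ± 0.29, adjusted p = 6.76e-05). Enzymes of serine and asparagine synthesis fell less, PSAT1 by 1.75 and ASNS by 1.29 on the log2 scale (adjusted p = 2e-05 and 0.000741). Several of the members that fell, such as TRIB3 (-3.61, adjusted p = 0.000953), are known to be induced by the stress factor ATF4. ATF4 itself was at 335, 385 and 307 CPM at Day1 and 349, 351 and 290.1 at Day2 (-0.05, adjusted p = 0.865). The endoplasmic reticulum chaperone HSPA5 was at 1756 ± 115 CPM and 2488 ± 17.8 CPM (0.50, adjusted p = 0.00541). SLC7A5 was at 215 ± 114 CPM at Day0 and 70.7 ± 36 CPM at Day3, so its Day1 level was the highest of the 4 days. In the copy-adjusted fit 7 of the 24 were lower.

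Of 24 genes of glycolysis 3 were lower, SLC2A3, PFKP and PDK1 (12.5%, against 8.16% of all genes). None was higher, though 3 were higher without Day2 replicate 3. SLC2A3, a glucose transporter and at Day1 one of the most abundant called transcripts (2511 TPM), went from 4462, 4724 and 4093 to 493, 734 and 1028 CPM (log2 fold change -2.56 ± 0.22, adjusted p = 2.56e-06). SLC2A1, the other main transporter, was at 171 ± 35.1 CPM and 217 ± 23.1 CPM (adjusted p = 0.335). PFKP, a phosphofructokinase gene, fell by 1.74 and PDK1, which restrains pyruvate entry to mitochondria, by 1.27 on the log2 scale (adjusted p = 0.000702 and 0.00352). The PDK1 call was lost without Day2 replicate 3 (log2 change -0.97). GAPDH was at 1855 ± 76.1 CPM and 1850.4 ± 90.3 CPM (adjusted p = 0.986). In cholesterol synthesis 3 of 23 were lower (13.0%, against 8.16% of all genes) and none higher, with 1 lower without Day1 replicate 2 and in the copy-adjusted fit and 5 without Day1 replicate 3.

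Of 24 genes of G1/S and DNA replication 1 was lower (4.17%, against 8.16% of all genes). This was CCND2 (358 ± 22.2 CPM to 143 ± 25.2 CPM, log2 fold change -1.32, adjusted p = 0.000159). Of 24 genes of G2/M and mitosis none was called. With single libraries left out, the first list had up to 2 lower (without Day1 replicate 1 or Day2 replicate 2) and the second at most 1 in each direction. CDK1, the kinase that starts mitosis, was at 121 ± 12.8 CPM at Day1 and 137 ± 19.4 CPM at Day2 (adjusted p = 0.53). TOP2A, a topoisomerase of dividing cells, and RRM1, which supplies nucleotides for replication, were higher at Day2 by 0.83 and 0.85 on the log2 scale, short of 2-fold (adjusted p = 0.000876 and 0.000581).

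Markers of endoderm, endothelium and blood, and trophoblast were at or near 0 at Day2, whereas neural markers, described below, were not. The endoderm markers SOX17 and FOXA2 had 0, 1.68 and 0.196 CPM and 0.233, 3.69 and 1.96 CPM at Day1, and both had no count at Day2. The endothelial and blood markers PECAM1, CDH5 and TAL1 summed to 0.503 to 2.15 CPM at Day1 and 0 to 0.353 at Day2, and the trophoblast markers CGA, ELF5 and TP63 had no count on either day. All of these Day2 levels lie under what a count of 0 allows. HAND1, NKX2-5 and TNNT2, of cardiac and lateral mesoderm, summed to 6.46 to 12.2 CPM and 0.706 to 11.4 CPM. CXCR4, which is listed with endoderm and is also a known gene of presomitic mesoderm, rose from 15.6, 19.3 and 16.1 to 102, 96.8 and 72.7 CPM (log2 fold change 2.41 ± 0.32, adjusted p = 0.000152). LMO2, of blood and endothelial precursors, had 1.4, 1.68 and 4.9 CPM at Day1 and 63.8, 18 and 26.4 at Day2 (3.75, adjusted p = 0.00219), while KDR, of the same lineage, fell (-1.79, adjusted p = 0.0012); the LMO2 call was lost in the copy-adjusted fit (adjusted p = 0.0521).

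Of 20 tested neuronal genes 4 were higher (20%, against 3.58% of all genes) and none lower (median 0.96). There were 7 higher in the fit on the 6 libraries alone, 2 with limma on TPM and 1 in the copy-adjusted fit. STMN2, a microtubule regulator of neurons, was at 252, 124 and 202 CPM at Day1 and 621, 502 and 349 at Day2 (log2 fold change 1.35 ± 0.31, adjusted p = 0.00653), and MAP2, a microtubule protein of dendrites, at 102, 67.5 and 79.9 CPM at Day1 and 330.5, 206 and 145 at Day2 (log2 fold change 1.45 ± 0.28, adjusted p = 0.00219). Both were highest in Day2 replicate 1 and lowest in replicate 3, and both were lowest at Day1 in replicate 2, which also had the lowest copy index of its day. With the index as a covariate STMN2 had a log2 fold change of 0.56 (adjusted p = 0.144) and MAP2 of 1.02 (adjusted p = 0.059). With limma on TPM the log2 change of MAP2 was 0.96. DCX, also called, had a log2 change of 0.22 with the index, after 1.10 without it, and was lost without Day1 replicate 2, Day1 replicate 3, Day2 replicate 1 and Day2 replicate 2 (adjusted p 0.0725 to 0.153). NCAM1, an adhesion molecule of neurons and other cells, kept its call, with 1.30 and, with the index, 1.26 (adjusted p = 0.0359). At Day3 MAP2 was at 65.1, 114 and 64.1 CPM, STMN2 at 324, 335 and 148 and PPIAL4G at 289, 347 and 32.8. Each was highest in replicate 2 and lowest in replicate 3. The 3 defining markers of neurons, STMN2, ELAVL3 and RBFOX3, summed to 129 to 258 CPM at Day1 and 358 to 632 at Day2. Of these, ELAVL3 and RBFOX3 stood at 10.6 ± 3.41 CPM and 2.95 ± 2.97 CPM at Day2 and were not called (adjusted p = 0.207 and 0.653). The neural progenitor markers SOX1, PAX6 and LHX2 summed to 17.3 to 49.1 CPM at Day1 and 45.9 to 98.5 at Day2, with none of the 3 called. The part of neural cells in these results was not tested.

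**Figure D5:**
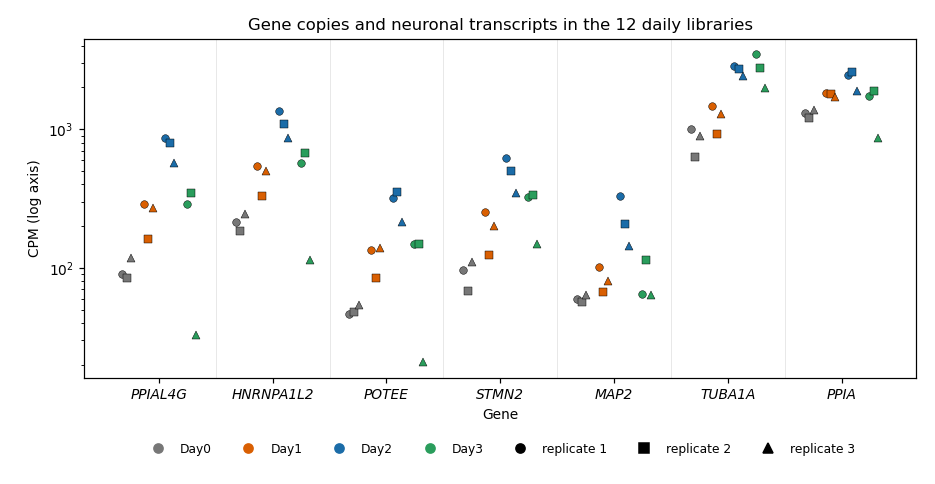
CPM on a log axis for 3 gene copies (PPIAL4G, HNRNPA1L2, POTEE), 3 neuronal transcripts or tubulins (STMN2, MAP2, TUBA1A) and PPIA, the gene that PPIAL4G copies, in the 12 daily libraries (colour gives the day, symbol the replicate). Day2 holds the highest values of the copies, of STMN2 and of MAP2, and Day1 replicate 2 and Day3 replicate 3 hold the lowest copy values of their days.

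Several abundant genes called between the days have near-identical copies in the genome, and how reads were divided between copies was not tested, so their values are uncertain. The 5 called genes with the highest TPM at Day2 were RPL19, HMGB2, TUBA1A, HNRNPAB and PPIAL4G. PPIAL4G lost its call without Day1 replicate 1, Day1 replicate 2, Day1 replicate 3, Day2 replicate 1 and Day2 replicate 2 (adjusted p 0.0586 to 0.134). HMGB2 was lost without Day1 replicate 2 (log2 change 0.95), in the copy-adjusted fit (0.83) and with limma on TPM (0.82). TUBA1A was lost without Day1 replicate 2 (log2 change 0.94), in the copy-adjusted fit (0.67) and with limma on TPM (0.95). RPL19, a ribosomal protein, was at 2527 ± 420.2 CPM and 5241 ± 662 CPM (1.05, adjusted p = 0.00435), and its call was lost without Day1 replicate 2 and Day2 replicate 2 (log2 change 0.93 to 1.00) and in the copy-adjusted fit (log2 change 0.40). HNRNPAB was lost without Day1 replicate 1, Day1 replicate 2, Day1 replicate 3, Day2 replicate 1 and Day2 replicate 2 (adjusted p 0.0579 to 0.137), and its log2 change in the copy-adjusted fit was 0.02. The muscle actins ACTA2, ACTC1 and ACTG2, which resemble each other and the POTE copies, were called higher with log2 fold changes of 1.53, 1.02 and 1.51 (adjusted p = 0.013, 0.0309 and 0.0196). Their log2 changes in the copy-adjusted fit were 0.35, 0.32 and 0.21. They made up 3 of the 4 calls among 20 contractile genes (20% higher, against 3.58% of all genes). Of these 4 calls, 1 was left without Day1 replicate 2. All 4 were lost in the copy-adjusted fit, including the remaining gene, DES (adjusted p = 0.0955). In the fits without Day1 replicate 1, Day1 replicate 3, Day2 replicate 1 or Day2 replicate 2 there were 2 left. ACTA2 was lost without Day1 replicate 2 (adjusted p 0.0633) and ACTG2 without Day1 replicate 2, Day1 replicate 3 and Day2 replicate 1 (adjusted p 0.0583 to 0.0964). ACTC1 was lost without Day1 replicate 1, Day1 replicate 2, Day2 replicate 1 and Day2 replicate 2 (adjusted p 0.0655 to 0.146).

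Called genes with a mean under 1 CPM at Day1 and at least 5 CPM at Day2, or the reverse, were counted separately. By this rule 36 were switched on, with ALDH1A2, ABCG1, MSGN1 and HOXB3 among the highest, and 91 were switched off, led by CER1, DKK4, CALCR, RGS16 and CLDN7. Only 8 of the 36 had no count at Day1 and 19 of the 91 none at Day2. The 1 CPM limit lies at what a count of 0 allows in a Day2 library (0.901 to 1.06 CPM). It lies above that of a Day1 library (0.503 to 0.699 CPM), so the 36 and the 91 are not strictly comparable. Of those switched on, 23 had been under 1 CPM at Day0 too and 16 were at 5 CPM or more at Day3, with 9 back under 1 CPM. MSGN1 is one of the 9, at 0.216 ± 0.236 CPM on Day3. ABCG1, a cholesterol exporter, was at 8.76 ± 5.13 CPM at Day0, had 3 counts over Day1 and stood at 57.5, 38.8 and 76 CPM at Day2, a ratio of 299 (95% interval 102 to 1456). Of those switched off, 45 had been at 5 CPM or more at Day0 and 12 under 1 CPM, CER1 and DKK4 among the latter with 0.77 ± 0.687 CPM and 0.0854 ± 0.148 CPM. The receptor CALCR and the G protein regulator RGS16 each had 1 count over the Day2 libraries, with depth-scaled Day1 to Day2 ratios of 643 (95% interval 115 to 25434) and 459 (95% interval 82.1 to 18137).

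The 10 largest rises among called genes at 20 CPM or more included 3 not yet described. TMEM132C, a membrane protein of little-known function, had 3.49, 3.85 and 1.76 CPM at Day1 and 119, 98.5 and 125 at Day2 (log2 fold change 5.22 ± 0.40, adjusted p = 9.45e-07). SLC8A3, a sodium-calcium exchanger, had 0.699, 3.02 and 1.57 CPM at Day1 and 25.4, 68.9 and 122 at Day2 (log2 fold change 5.28 ± 0.67, adjusted p = 7.74e-05). EGFLAM, a matrix protein also called pikachurin, had 7.45, 6.7 and 7.05 and 134, 73.8 and 108 CPM (log2 fold change 3.90 ± 0.52, adjusted p = 0.000135). At Day3 TMEM132C was at 14.6 ± 3.24 CPM, SLC8A3 at 6.77 ± 2.17 CPM and EGFLAM at 10.1 ± 7.44 CPM, each below its Day2 libraries in every Day3 library. Of the 10 largest falls, TMEM30B, a flippase subunit, had 31.9, 16.1 and 13.3 CPM at Day1 and 0, 0.353 and 0.300 at Day2 (-6.42, adjusted p = 2.13e-05), and RGPD8, which has near-identical RGPD copies and is uncertain, had 39.1, 5.36 and 49.1 and 0, 0 and 0.901 CPM.

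The Day2 libraries differed in ways that touch these results. Day2 replicate 1 held the lowest MSGN1, RSPO3, WNT8A and T and the highest EOMES, MIXL1 and DKK1 of the 3, and replicate 3 the highest MSGN1, RSPO3, T and ALDH1A2 and the lowest EOMES, MIXL1 and DKK1. Over all 457 genes called higher the order was different: replicate 1 was the highest Day2 library for 199 and replicate 3 the lowest for 208. Among the 1042 called lower, replicate 1 was the lowest for 573 and replicate 3 the highest for 461, whereas replicate 1 was the lowest for 38.2% of the genes not called. Without Day2 replicate 3, 1834 genes were called, and without Day2 replicate 1, 1356. The part of these library differences in the single results was not tested beyond the values given.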

How the data were processed

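RNA-seq values were analysed as deposited by the authors: expected counts per gene, which the authors estimated from their reads, and the authors' TPM values for the same genes. Reads were aligned with Bowtie 0.12.2, and hg19 and mm8 are named as builds, per the submitters' processing notes; for the program that estimated the counts, the sources used here give no name. Columns without a sample numbered 0.

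Expected counts were rounded and then tested in R 4.3.3 with edgeR 4.0.16 (TMM scaling, filterByExpr, quasi-likelihood F test, Benjamini-Hochberg adjustment) on the 12 daily libraries, 3 a day, for Day2 minus Day1. The filter kept 12765 of 19084 genes. The script was first tested on simulated counts. Alternatives were the 6 libraries alone, RLE size factors, DESeq2 1.42.0, no filter or at least 5 CPM in 3 libraries, a replicate block, limma 3.58.1 on log2(TPM + 1) or log2(TPM + 0.1), thinning to the smallest total, and leaving out each library. The copy index, the mean centred log2 CPM of 7 near-identical gene copies, was added as a covariate after seeing the data.

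Genes were named by a rule: the 10 largest rises and falls at 20 CPM or more without overlap, up to 3 called genes per list and direction, cell type markers, the 5 called genes highest in TPM on each day, and genes switched on or off. Other named genes, among them those not called, were chosen after their values were seen. The 38 gene lists and all members were chosen with earlier results of these data known. Intervals and floors (95%, exact; 3 counts) cover counting error only. Promoter sequences are RefSeq's, on GRCh38.p14, a later build than hg19, and were matched by symbol to 9506 of 12765 tested genes (74.5%, under the 80% set for a comparison), so motif shares were not compared between called genes. Results for a few genes are not reported here.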

Additional observations from a re-analysis of the deposited data

How the results depend on the processing

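The number of called genes stayed within 1.5 times the reported 1499 under all settings run but 2. It was 531 with the copy index, of which 496 were also called in the reported fit, and over fits that left out 1 library it ran from 864 (without Day1 replicate 2) to 1834 (without Day2 replicate 3). Genes called higher ran from 221 to 601 and genes called lower from 643 to 1233 over the same fits. With the copy index 170 were higher and 361 lower. On TPM with limma 290 were higher and 1615 lower with a pseudocount of 1, and 274 and 1643 with 0.1. The log2 change of PPIAL4G, a member of the index, was -0.14 with the copy index. The cause of these differences was not tested.

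Replicate numbers are shared by the days, but same-numbered libraries did not deviate together (correlations 0.0523, 0.00203 and -0.00487). With 3 libraries a day this cannot settle whether the numbers pair them, and no label says that they do. The fit with a replicate block called 1488 genes, 435 higher and 1053 lower, and 2 of the 163 called genes recomputed lost their call in it. Of those 163 genes, 82 kept their call under every setting run. A count of 0 at Day2 leaves up to 0.901 to 1.06 CPM unseen, so falls to 0 are lower bounds.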
